A study of Mus musculus with 360 samples.

Results

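WT Cells 1 is the largest group of control cells in a single-cell RNA study of the adult mouse cochlea. Its members were chosen from the cluster assignment that the authors deposited, as the control cells placed in cluster 0, which carries that name. They are 80 cells of 180 control cells and of 360 cells in all. The study sorted cells of 2 genotypes, and the comparisons below use control cells only. In the control genotype, Fbxo2CreERT2 (Cre recombinase under Fbxo2, active after tamoxifen) was combined with Rosa26-tdTomato, which labels the recombined cells. The GAP genotype has both of these and Rosa26-GAP, from which recombined cells express Gfi1, Atoh1 and Pou4f3. Both received tamoxifen at the age of 3 weeks, and cochleae were dissociated with papain at 5 weeks. Single cells were sorted on tdTomato and EpCAM, so Fbxo2 and Epcam bear on which cells could enter the set. The titles carry letters, read here as plates: A and B hold control cells. The members split into 28 cells of letter A and 52 of letter B. They were set against 78 control cells of 3 other clusters, named by the authors WT Cells 2 (cluster 3, 29 cells), WT Supp Cells (cluster 4, 29 cells) and WT Cells 3 (cluster 6, 20 cells), here called the reference cells. The control cells left out are 20 in clusters 5 and 8 and 2 without a cluster, and 4 GAP cells that also fell in cluster 0 entered no comparison.

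The cochlear epithelium consists of sensory hair cells, the supporting cells around them, and flat or columnar nonsensory cells on either side. Nonsensory cells are joined by tight junctions and gap junctions, move potassium between the fluids of the inner ear, and secrete the proteins of the tectorial membrane, the gel that overlies the hair cells. Supporting cell types differ in their glutamate transporters, growth factor receptors and Notch and Wnt pathway genes.

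Libraries were made by SMART-MATQ, which primes along whole transcripts and tags molecules with unique molecular identifiers (UMIs). The labels name no animals, so all control cells count as 1 sample, and the authors' clusters come from this same expression data. For both reasons nothing was tested and no p-value is given. Levels are UMIs summed over the cells of a set scaled to the total UMIs of that set (CPM). Ratios carry the exact conditional-binomial 95% interval, which covers counting error only. The members held 1697070 UMIs, with a median of 19822 per cell (8192 to 41653) and 3564 genes. The reference cells held 1748094 UMIs, with a median of 20196.5 per cell. Cluster medians were 26732 UMIs in cluster 3, 13693 in cluster 4 and 22300.5 in cluster 6. Mitochondrial genes took 4.17% of the members' UMIs and 4.22% of those of the reference cells. A gene with no UMI in the members has a limit of 1.77 CPM, which is 3 UMIs over the set. WT Cells 1 made up 31.1% of the clustered control cells of letter A (28 of 90, exact binomial interval 21.8 to 41.7) and 59.1% of those of letter B (52 of 88, interval 48.1 to 69.5). The letters thus contribute unequally to the members and to the reference, and values are given for each letter.

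Both genes of the sort were present. Fbxo2, a ubiquitin ligase subunit that binds glycoproteins, had at least 1 UMI in all 80 members, from 67.2 to 1998 CPM per cell with a median of 682. Its pooled level was 768 CPM, 853 in letter A and 727 in letter B, against 671 CPM in the reference cells, a ratio of 1.15 (1.06 to 1.24). Epcam, an adhesion protein of epithelial cells, had a UMI in 60 members and a median of 170.6 CPM per cell. Its pooled level was 187 CPM against 194 CPM, a ratio of 0.966 (0.827 to 1.13). The ranges of members and reference cells overlapped for both genes.

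Markers of cell types outside the epithelium were at or near 0. All 6 neuronal genes, among them Tubb3, Nefl and Snap25, had no UMI in the members. Among Schwann cell and glial genes, Mag, Pmp22 and Prx were at 0, while Mbp stood at 54.8 CPM and Sox10, which cochlear epithelium also expresses, at 1728 CPM. The summed level of 8 leukocyte genes was 1.77 CPM in the members, and that of 5 erythroid genes was 0.589 CPM. The 7 endothelial and pericyte genes summed to 2.36 CPM against 14.9 CPM in the reference cells. Among fibroblast genes, Col1a2, Col3a1, Coch, Otos and Pou3f4 had no UMI, and Lum, which nonsensory cochlear cells also contain, gave most of a list sum of 160.9 CPM against 551 CPM. Of 22 hair cell genes, 12 were at 0, including Atoh1, Pou4f3, Otof and Slc26a5. A 0 in this table need not mean no RNA, since mt-Co2, mt-Co3 and mt-Atp6, which every cell uses, were also listed at 0 in all 360 cells. Tubb3, Nefl, Col3a1, Coch and Pou3f4 were likewise at 0 in all 360 cells, so their 0 does not set the members apart. Snap25, Prx, Col1a2, Otos and the 12 hair cell genes at 0 had no UMI in the reference cells either. Mag had 2 UMIs and Pmp22 had 3 there. These genes thus do not set the members apart from the reference cells.

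WT Cells 1 differed from the reference cells by 2-fold or more in 1705 of 9667 genes. A gene was included in such a comparison if it reached 10 CPM in either set, and was called if it differed by 2-fold or more on the scale of CPM + 1 and in the same direction within letter A and within letter B. By this rule 595 genes (6.15%) were higher and 1110 (11.5%) were lower. The median log2 ratio over all these genes was -0.05. These 2 shares are the background for the counts of gene lists below, and since the clusters were made from the same counts, they describe the clusters and do not test them. Of the 1110 lower genes, 422 had their highest level in cluster 3, 420 in cluster 4 and 268 in cluster 6. The same split of all 9667 genes is not given here, and the clusters differ in depth, so these counts are not ranked. Of the 595 higher genes, 320 were also called higher against cluster 6 alone. Over all 9677 genes compared with cluster 6, 1364 (14.1%) were called higher. Cluster 6 is part of the pooled reference, so the 2 calls are not independent.

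**Figure D1:**
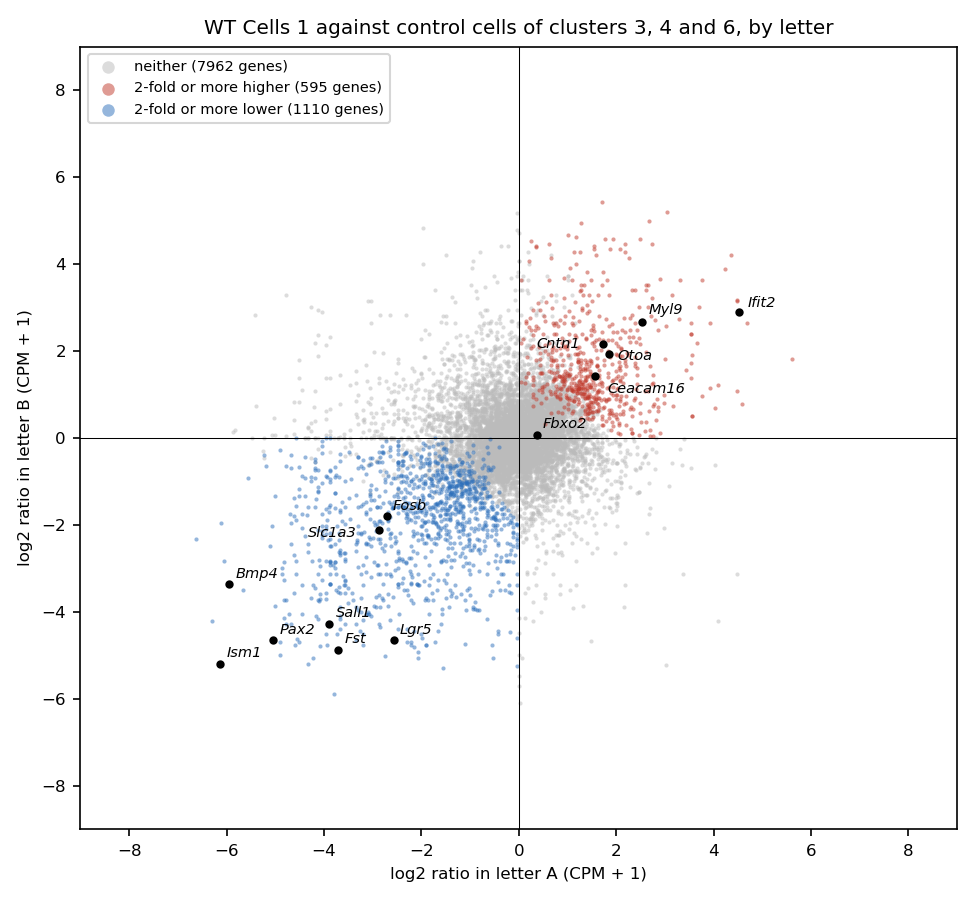
Log2 ratio (CPM + 1) of the members to the reference cells, in letter A on the x axis and letter B on the y axis, with 1 point per gene at 10 CPM or more. The 595 genes called higher and 1110 called lower lie at the upper right and the lower left by the letter condition, and Otoa and Cntn1 lie close to the same value in both letters.

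Of 14 genes for the tectorial membrane and other apical matrix, Otoa and Ceacam16 were higher in the members. Otoa (otoancorin, a surface protein of nonsensory cells that anchors inner ear gels; mm10 chr7:121081650-121163097, plus strand) ranged from 187 to 3619 CPM per cell with a median of 1229. Reference cells ranged from 0 to 1797 CPM with a median of 138.96. The groups overlapped, but no member was without an Otoa UMI, and 10 of 78 reference cells were. Pooled, Otoa was at 1346 CPM (1307 in letter A, 1365 in letter B) against 358 CPM, 3.76-fold higher (3.44 to 4.12). With each cell thinned to 8000 UMIs, 100% of members and 71.8% of reference cells had an Otoa UMI. The reference clusters themselves were far apart, at 75.4 CPM in cluster 3, 257 in cluster 4 and 929 in cluster 6, and against cluster 6 alone the ratio was 1.45 (1.31 to 1.61).

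Ceacam16, a secreted protein of the tectorial membrane (mm10 chr7:19852097-19861299, minus strand), followed the same order. It ranged from 124.3 to 4196 CPM in the members, with a median of 1266, and from 0 to 4176 CPM in the reference cells, with a median of 239. Its pooled level was 1417 CPM against 469 CPM, 3.02-fold higher (2.79 to 3.28), and cluster 6 was closest at 1171 CPM. Exons of Ceacam16 share 380 bases with a predicted gene, so reads there could be counted for either. Otog, another protein of acellular gels, was at 1042 CPM against 769 CPM, a ratio of 1.36 (1.26 to 1.46). Cluster 4 exceeded the members for Otog at 1901 CPM, and within letter A the log2 ratio to the reference was -0.15.

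The 6 matrix genes called lower were Tecta, Tectb, Col2a1, Otogl, Col9a1 and Col9a3. Tecta, Tectb and Col2a1, which encode alpha-tectorin, beta-tectorin and a fibrillar collagen, had no UMI in any member. They were at least 6.15-fold, 12.3-fold and 12.9-fold lower than in the reference, where they were found in 3, 8 and 9 cells. Otogl had 45.4 CPM in the members and 307 CPM in the reference, 6.76-fold lower (5.31 to 8.70). Col9a3 was 6.46-fold lower (4.15 to 10.5). Epyc, a small leucine-rich proteoglycan, was at 2064 CPM against 2821 CPM, between cluster 3 at 4559 CPM and cluster 4 at 503 CPM. Epyc shares 1041 exon bases with a predicted gene. In all, 13 of 14 matrix genes passed the level filter, of which 2 were called higher and 6 lower, and the median was -0.45. That median turned to 0.40 with a filter of 50 CPM, to 0.01 without cluster 3 and to 0.50 without cluster 4.

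**Figure D2:**
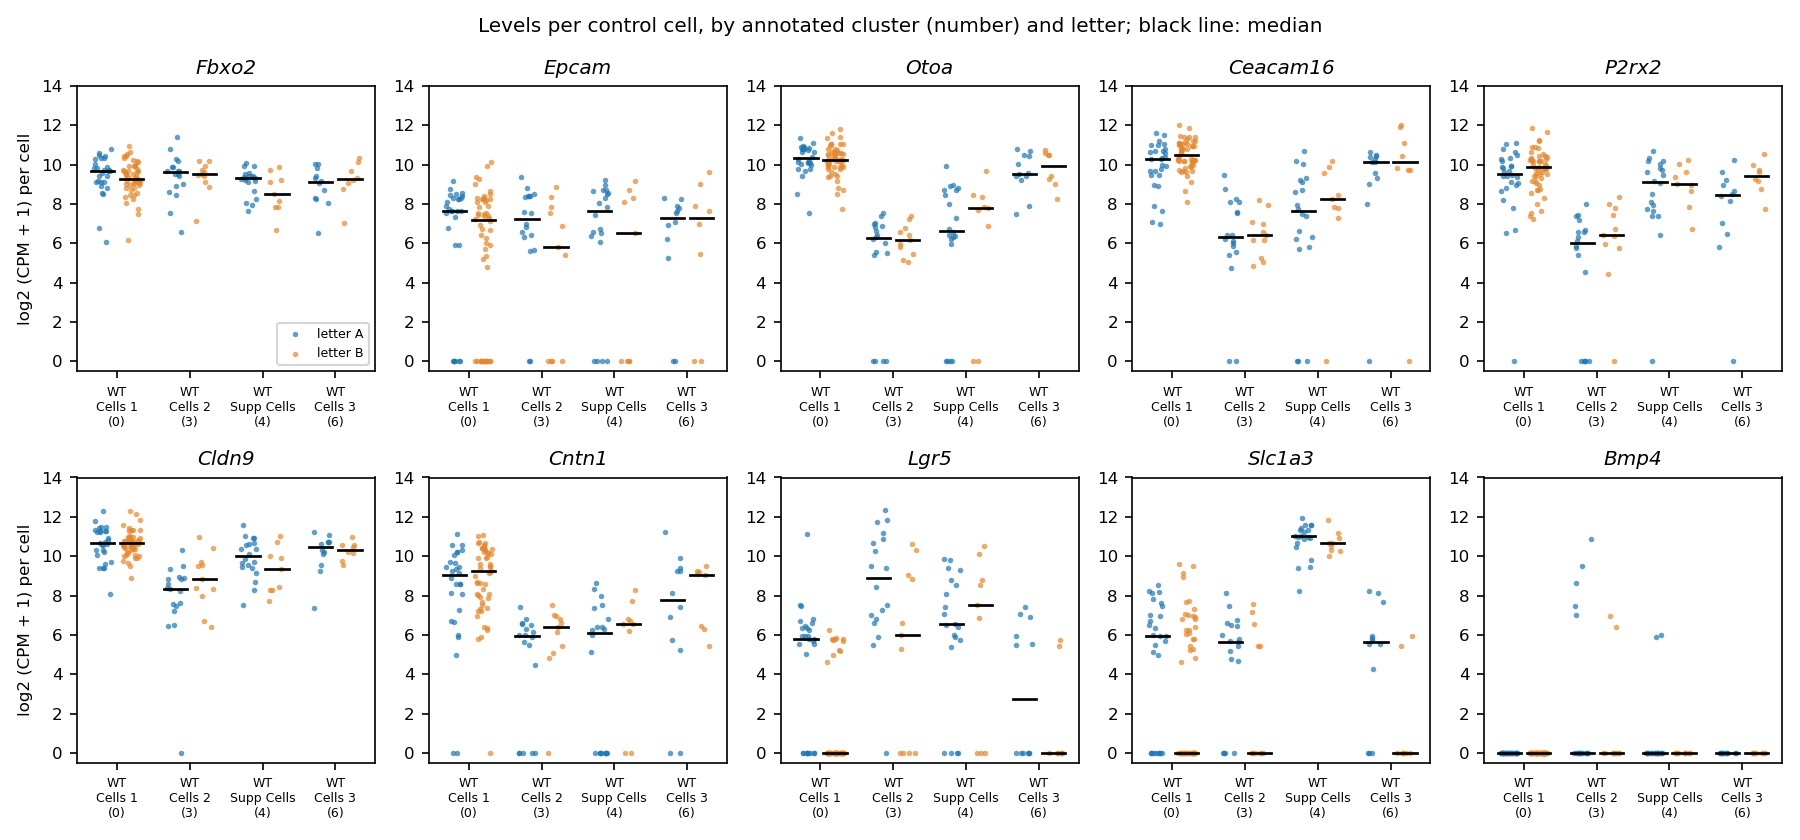
Level of 10 genes in each control cell, as log2 (CPM + 1), by annotated cluster on the x axis and by letter (blue A, orange B), with black lines for medians. Otoa, Ceacam16, P2rx2 and Cldn9 have a UMI in 80, 80, 79 and 80 members, cluster 6 lies nearest to them for Otoa and Ceacam16, and Bmp4 has no UMI in any member.

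Channels and transporters of the potassium and chloride pathways were strongly expressed. Kcnj16, an inward rectifier potassium channel subunit, ranged from 419 to 5403 CPM in the members, with a median of 2717, and from 36.3 to 4571 CPM in the reference cells, with a median of 1535. Its pooled level of 2601 CPM was 1.61-fold that of the reference (1.54 to 1.69) and exceeded each cluster, the nearest being cluster 4 at 1966 CPM. Its partner subunit gene Kcnj10 was at 1025 CPM against 847 CPM. Slc26a4 (pendrin, an anion exchanger) was at 1057 CPM, between cluster 3 at 1323 CPM and cluster 6 at 640 CPM. None of these 3 genes reached 2-fold against the pooled reference.

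P2rx2, an ATP-gated cation channel, did (mm10 chr5:110339812-110343212, minus strand). It ranged from 0 to 3761 CPM in the members, with a median of 896 and a UMI in 79 cells. In the reference cells it ranged from 0 to 1678 CPM with a median of 240.5. Most members thus stood above the reference median while the ranges overlapped. The pooled level was 948 CPM (823 in letter A, 1009 in letter B) against 352 CPM, 2.69-fold higher (2.45 to 2.96). The ratio was 9.58 (7.655 to 12.2) against cluster 3, 1.46 (1.29 to 1.66) against cluster 4 and 1.91 (1.67 to 2.20) against cluster 6. The order of pooled levels was therefore members, cluster 4, cluster 6 and cluster 3.

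Among transporters that were lower, Slc12a7, a potassium chloride cotransporter, had 288 CPM in the members and 1040 CPM in the reference, 3.61-fold lower (3.26 to 3.996). The high level belonged to cluster 4 at 3213 CPM, and clusters 3 and 6 were at 272 and 258 CPM. Of 19 ion and water transport genes, 17 passed the filter, 1 was called higher and 7 lower, and the median log2 ratio was -0.61. The 1 higher gene, Kcnn2, a calcium-activated potassium channel, had 17 UMIs in the members and 1 in the reference cells, a ratio of 17.5 (2.74 to 732).

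A single reference cell carried much of the stria vascularis signal on the other side of this comparison. It belonged to letter B and cluster 3, and its 11 stria genes summed to 27892 CPM, against at most 2428 CPM in any other reference cell. Of the reference UMIs of Kcne1, a potassium channel subunit, it held 94.6%, and of those of Atp1b2, a sodium pump subunit, 59.9%. With that cell left out, a choice made after seeing the data, the reference level of Atp1b2 was 194 CPM in place of 476 CPM, against 230 CPM in the members. Slc12a2, a sodium potassium chloride cotransporter, was then 1.75-fold lower in the members (1.45 to 2.12), where it had been 2.52-fold lower (2.11 to 3.02). The median of the transport list moved from -0.61 to 0.01, and that of the stria list from -1.86 to -1.72. The stria list had 7 of 11 members past the filter, with 0 called higher and 5 lower, and without the cell 5 past the filter, with 0 called higher and 2 lower, Cldn11 and Kcnq1. For the transport list the lower calls numbered 5 of 16 genes without the cell. Cldn11, a tight junction gene of that list, did not rest on this cell: it was 11.2-fold lower (5.21 to 28.8) with it and 11.4-fold lower (5.30 to 29.3) without it.

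Junction genes differed from the reference in both directions, and the calls were all lower. Cldn9, a tight junction protein of the cochlear epithelium, ranged from 273 to 5051 CPM in the members, with a median of 1642, and from 0 to 3054 CPM in the reference cells, with a median of 745. Pooled, it was at 1800 CPM against 913 CPM, a ratio of 1.97 (1.86 to 2.10), just short of 2-fold, and it exceeded clusters 4 and 6 by 1.502 and 1.42 times. The gap junction genes Gjb2 and Gjb6 were at 1216 against 1489 CPM and at 300 against 601 CPM, the latter 2.005-fold lower (1.802 to 2.23). Both were highest in cluster 4. Cdh1, the epithelial cadherin, was at 506 CPM against 347 CPM. Among 18 junction and epithelial genes, all past the filter, 0 were called higher and 5 lower, and the median was -0.28.

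The lower members of that list were Gjb6, Cldn4, Cdh2 and the keratins. Krt8 had 48.3 CPM in the members and 188 CPM in the reference, 3.90-fold lower (3.05 to 5.02), and Krt18 had 23.6 CPM against 97.2 CPM, 4.13-fold lower (2.91 to 5.98). The keratins were highest in cluster 6, at 419 and 265 CPM. Against that cluster the members were 8.67-fold lower for Krt8 (6.67 to 11.3) and 11.2-fold lower for Krt18 (7.81 to 16.4). Krt8 shares exon bases with another gene. These are genes in which the members and the cluster nearest to them in Otoa stood far apart.

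General supporting cell genes were divided. S100a1, a calcium-binding protein, was at 4856 CPM against 4735 CPM, a ratio of 1.03 (0.995 to 1.06). Sox10 and Sox9, transcription factors of the otic epithelium, had ratios of 1.41 (1.33 to 1.49) and 1.22 (1.14 to 1.31), and Sox10 had a UMI in every member. Sox2, often used to mark supporting cells, had no UMI in the members and 6 in the reference cells. Of 12 listed genes, 11 passed the filter, 0 were called higher and 5 lower, and the median log2 ratio was -0.29.

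Per kilobase of exon, which allows genes to be compared with each other, the pooled level of S100a1 in the members was 6997 CPM per kilobase. Cldn9 followed at 1248, then Ceacam16 at 866, Epyc at 806, Kcnj16 at 661, Fbxo2 at 597, Sox10 at 566 and P2rx2 at 368 CPM per kilobase. Otoa, with long exons, was at 159.5 CPM per kilobase.

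Slc1a3, a glutamate and aspartate transporter of supporting cells that border inner hair cells, was among the lower genes (mm10 chr15:8634124-8710764, minus strand). It ranged from 0 to 783 CPM in the members, with a median of 35.5 and a UMI in 44 of 80 cells, and from 0 to 3976 CPM in the reference cells, with a median of 90.8. Pooled, it had 82.5 CPM in the members and 523 CPM in the reference, 6.34-fold lower (5.31 to 7.64). All 29 cells of cluster 4 had a Slc1a3 UMI, and that cluster stood at 1835 CPM, against 53.1 CPM in cluster 3 and 62.5 CPM in cluster 6. Without cluster 4 the log2 ratio turned from -2.65 to 0.54, so the lower level in the members is a difference from cluster 4. Jag1, Lfng, Gata3 and Gjb6, the other lower genes of the list, were also highest in cluster 4. Gata3 stayed lower without cluster 4, at a log2 ratio of -1.01 (-1.30 with it). For Jag1, Lfng and Gjb6 the ratio without cluster 4 is not given here.

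Of the pillar and Deiters cell genes past the filter, most were called lower, only Cntn1 was called higher, and the rest were called neither. Cntn1, a cell adhesion molecule of the immunoglobulin family (mm10 chr15:92051165-92341967, plus strand), ranged from 0 to 2227 CPM in the members, with a median of 581 and a UMI in 77 cells. In the reference cells it ranged from 0 to 2436 CPM with a median of 80.8. Its pooled level was 721 CPM (641 in letter A, 760 in letter B) against 183 CPM, 3.94-fold higher (3.48 to 4.47). The nearest cluster was again cluster 6 at 473 CPM, a ratio of 1.52 (1.32 to 1.76), and clusters 3 and 4 were at 63.02 and 91.5 CPM.

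Lgr5, a receptor of the Wnt pathway known for marking supporting cells with progenitor capacity, was 11.96-fold lower in the members (9.45 to 15.3; mm10 chr10:115450311-115587780, minus strand). Its level was 44.2 CPM against 529 CPM, with cluster 3 at 956 CPM, cluster 4 at 296 CPM and cluster 6 at 29.2 CPM. The letters differed: Lgr5 had a UMI in 19 of 28 members of letter A and in 11 of 52 members of letter B, at 112.2 and 10.6 CPM. One letter A cell with 36 UMIs held 48% of all Lgr5 UMIs of the members. Without that cell the pooled level was 23.2 CPM and the level in letter A 49.5 CPM. After thinning to 8000 UMIs per cell, 16.2% of members and 50% of reference cells had an Lgr5 UMI.

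Further members of the pillar and Deiters list that were lower are Ednrb, the endothelin B receptor, at 14.97-fold (8.37 to 29.5), S100b, a calcium-binding protein, at 21.4-fold (6.997 to 106.2) with 3 UMIs in the members, and Hey2, a Notch target, at 8.25-fold (3.54 to 23.5). Emid1 was at 0. The Ednrb level of the reference came from cluster 4 at 390 CPM, and without cluster 4 the log2 ratio turned from -3.73 to 0.51. Of 13 listed genes 9 passed the filter, 1 of them called higher and 5 lower, and the list had a median of -2.73.

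Genes of Hensen and Claudius cells, which lie lateral to the organ of Corti, divided in the same way. Kcnj16 was high in the members, as described above. Fst (follistatin, an inhibitor of activin and BMP ligands) had 13.6 CPM in the members and 268 CPM in the reference, 19.8-fold lower (13.03 to 31.5), and the stress-related Nupr1 had 49.5 CPM against 388 CPM, 7.84-fold lower (6.24 to 9.95). Gata2, a transcription factor, was 3.76-fold lower (2.94 to 4.86). Bmp4, a secreted BMP ligand, had no UMI in the members and 73 in the reference cells, at least 23.6-fold lower, though 1 reference cell held 52.1% of those UMIs. Cluster 3 was the source of the reference level for all 4 lower genes, at 559 CPM for Fst and 792 CPM for Nupr1, while clusters 4 and 6 were at 15.3 and 20.8 CPM for Fst. Of 7 listed genes 6 passed the filter, with 0 called higher and 4 lower. The list median of -2.42 turned to 0.32 when cluster 3 was left out of the reference.

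Outer sulcus and root cell genes had 5 of 6 members past the filter, P2rx2 called higher and Lum and Aqp5 lower. Lum, a proteoglycan, had 134.9 CPM in the members and 506 CPM in the reference, 3.75-fold lower (3.24 to 4.35), with cluster 3 at 881 CPM and cluster 6 at 129.2 CPM. The list median was 0.28.

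**Figure D3:**
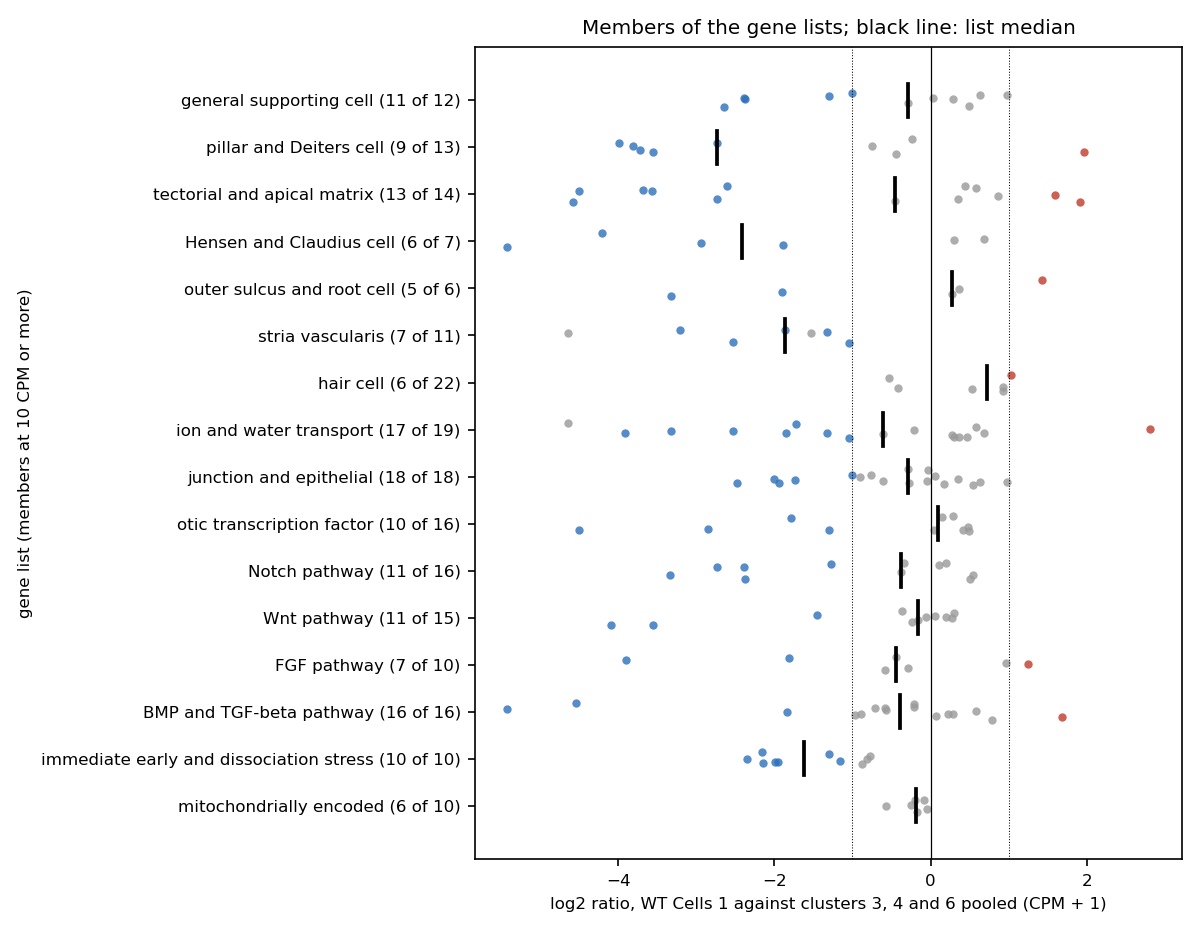
Log2 ratio (CPM + 1) of the members to the reference cells for each list member at 10 CPM or more, 1 row per list, red for genes called higher, blue for lower and grey for neither, with black lines for list medians and dotted lines at 2-fold. Pillar and Deiters genes have the lowest median at -2.73 and hair cell genes the highest at 0.73.

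Most hair cell genes were at or near 0. Only 6 of 22 passed the filter, so their median log2 ratio of 0.73 says nothing of the list as a whole. Espn, an actin-bundling protein, was called higher at 58.3 CPM against 28.03 CPM, 2.08-fold (1.46 to 2.99). Pcdh15, a cadherin of stereocilia links, was at 284 CPM against 196 CPM, and Ush1c, a scaffold protein, at 180 CPM against 94.4 CPM, with exons that overlap another gene. Myo6, an unconventional myosin, was at 134.3 CPM against 194 CPM.

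Otic transcription factors other than those above showed 2 patterns. Eya1 and Tbx2 had ratios of 1.40 and 1.11 and were not called. Pax2, needed for development of the otic epithelium, had 7 UMIs in 7 members and had 4.12 CPM in the members and 114.98 CPM in the reference, 27.9-fold lower (13.3 to 70.2). Isl1 had 26.5 CPM in the members and 198 CPM in the reference, 7.46-fold lower (5.46 to 10.4), and Lmx1a had 43.02 CPM against 151.02 CPM, 3.51-fold lower (2.70 to 4.61). Pax2 and Lmx1a were highest in cluster 3, at 238 and 290 CPM, and Isl1 in cluster 4, at 458 CPM. Gata3, a regulator of inner ear development, had 341 CPM in the members and 841 CPM in the reference, 2.47-fold lower (2.24 to 2.72), with overlapping exons. The list had 10 of 16 genes past the filter, 0 called higher and 4 lower, and a median of 0.10.

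Notch pathway receptors were near the reference level and several other pathway members were lower. Notch1 was at 239 CPM against 312 CPM and Notch2 at 183 CPM against 125.3 CPM. The ligand gene Jag1 had 28.3 CPM in the members and 150 CPM in the reference, 5.32-fold lower (3.90 to 7.40). Lfng, a modifier of Notch receptors, and the target genes Hey2, Heyl and Hes1 were lower, Heyl by 11.4-fold (6.33 to 22.6). Dll1, Hes5, Mfng, Notch3 and Nrarp had no UMI in the members. They show no difference, since the reference cells had only 1 UMI of Notch3 and 0 of the others. Of 16 genes, 11 passed the filter, none of them called higher and 5 lower, and the median was -0.38.

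In the Wnt pathway, 11 of 15 genes passed the filter, 0 were called higher and 3 lower, with a median of -0.16. The lower genes were the receptors Lgr5 and Lgr6 and the transcription factor Tcf7l2. Lgr6 was 19-fold lower (11.1 to 35.2), with cluster 4 at 582 CPM. Sfrp1, a secreted Wnt antagonist, was abundant in both sets, at 1438 against 1494 CPM. The target gene Axin2 was at 111.4 CPM against 90.4 CPM and the effector Ctnnb1 at 199 CPM against 192 CPM.

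The FGF receptors differed from the reference in opposite directions. Fgfr1 was at 700.0 CPM against 294 CPM, 2.38-fold higher (2.14 to 2.65), with a UMI in 78 of 80 members and a median of 618 CPM per cell against 134.3 CPM in the reference cells. Cluster 6 had the same receptor at 673 CPM, a ratio of 1.04 (0.919 to 1.18). Fgfr2 had 11.8 CPM in the members and 190 CPM in the reference, 16.1-fold lower (10.3 to 26.7), and its level lay in cluster 3 at 389 CPM. Fgfr3 was at 9.43 CPM against 13.2 CPM. All 3 receptors have exons that overlap other annotated genes. Dusp6, a phosphatase induced by FGF signalling, was 3.60-fold lower (2.64 to 4.99). Of 10 genes 7 passed the filter, 1 called higher and 2 lower, with a median of -0.44.

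In the BMP and TGF-beta list all 16 genes passed the filter, with 1 called higher, 3 lower and a median of -0.40. The median turned to 0.26 with a filter of 50 CPM and to 0.09 without cluster 3. Ltbp2, an extracellular matrix protein of the fibrillin family, was the higher gene, at 536 CPM (404 in letter A, 602 in letter B) against 165.9 CPM, 3.23-fold (2.83 to 3.70). It had a UMI in 74 members and a median of 433 CPM per cell, against 36.8 CPM in the reference cells. Cluster 6 was at 523 CPM and clusters 3 and 4 at 28.4 and 34.9 CPM. Its relative Ltbp1 had 1 UMI in the members against 63 in the reference, a ratio of 61.2-fold lower (10.6 to 2454). Tgfb2, a ligand, was at 770 CPM against 628 CPM. Id3, a target of BMP signalling, was 3.62-fold lower (2.93 to 4.50). Ltbp2 and Tgfb2 share exon bases with other genes.

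Immediate early and heat shock genes, which tissue dissociation can induce, were lower in the members. All 10 listed genes passed the filter, 0 were called higher and 7 lower, and the median log2 ratio was -1.63. Against cluster 3 alone, 1 of these genes was called higher and 4 lower. Against clusters 4 and 6 alone, 4 and 9 of them were called lower and 0 higher. Their summed level was 4180 CPM in the members (3048 in letter A, 4739 in letter B) and 13078 CPM in the reference cells. The clusters ranged from 6368 CPM in cluster 3 and 11563 CPM in cluster 4 to 25836 CPM in cluster 6. Per cell the sum ran from 263 to 33201 CPM in the members, with a median of 1785, and from 334 to 58357 CPM in the reference cells, with a median of 8604. The ranges overlapped, and most members lay under the reference median.

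Egr1, a transcription factor, had 551 CPM in the members and 2432 CPM in the reference, 4.41-fold lower (4.11 to 4.74). Fosb, a subunit of the AP-1 factor, had 772 CPM in the members and 3071 CPM in the reference, 3.98-fold lower (3.74 to 4.23), at 454 CPM in letter A and 929 CPM in letter B. Fos was 3.87-fold lower (3.59 to 4.18), and the chaperone gene Dnajb1 was 4.48-fold lower (3.88 to 5.18). Cluster 6, the nearest of the reference clusters in Otoa, Ceacam16, Ltbp2 and Fgfr1, was the farthest in these genes: Egr1 was 9.66-fold lower in the members than there (8.96 to 10.4) and Fosb 8.20-fold lower (7.69 to 8.76). The part of this difference in the other genes compared with cluster 6 was not tested.

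By the rule for the largest ratios, 15 genes were named in each direction. It required 20 CPM and 10 cells with a UMI in the higher set, no cell with more than 1 in 3 of its UMIs, and the same direction in both letters and against each cluster. The highest were Ajap1, Ifit2, Sspn, Rsad1, Lpl, Trdn, Nudcd2, Ttbk1, Gckr, Pcp4, Tril, Tg, Hsd17b6, Myl9 and Mok. Most of them were low and present in few members. Ajap1, a membrane protein of adherens junctions, had 37 UMIs in 11 members and 1 in the reference, a ratio of 38.1 (6.43 to 1546). Ifit2, an interferon-induced gene, had 83 UMIs in 20 members and 5 in the reference, 17.1-fold (7.04 to 54.04). Lpl, which splits lipoprotein triglycerides, was at 78.4 CPM against 8.58 CPM, 9.13-fold (5.34 to 16.8), in 28 members. Gckr, a regulator of glucokinase, was 7.92-fold higher (4.69 to 14.3), in 27 members.

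A few of the 15 were found in many members. Myl9, a myosin regulatory light chain, had a UMI in 60 members, from 0 to 1522 CPM with a median of 194, and in 32 reference cells, with a median of 0. It was at 343 CPM (369 in letter A, 330 in letter B) against 58.3 CPM, 5.88-fold (4.75 to 7.33), and remained 2.14-fold higher against cluster 6 (1.68 to 2.75). Tg, thyroglobulin, was at 99.6 CPM against 15.4 CPM, 6.45-fold (4.28 to 10.1), with a UMI in 46 members and 12 reference cells. Hsd17b6, a steroid-metabolising dehydrogenase, was at 134.9 CPM against 21.7 CPM, 6.21-fold (4.39 to 8.997), in 38 members. Exons of Sspn, Ttbk1, Pcp4, Tril and Tg overlap other annotated genes, so their counts are less certain.

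The 15 lowest were Ism1, Amph, Cpa6, Rel, Diras2, Ltbp1, Pax2, Kif26b, Sall1, Lbh, Scamp5, Slitrk3, Prelp, Fst and Dusp10. Ism1, a secreted protein, had no UMI in the members and 99 in 22 reference cells, at least 32-fold lower, and Kif26b, of the kinesin family, had 37 in 11 reference cells, at least 12-fold lower. Sall1, a zinc finger transcription factor, had 8.84 CPM in the members and 192 CPM in the reference, 21.7-fold lower (12.997 to 39.3), with cluster 4 at 632 CPM. Lbh, a transcription regulator, had 4.71 CPM in the members and 110 CPM in the reference, 23.3-fold lower (11.6 to 54.7). Most of these genes were high in 1 reference cluster: Ism1, Amph, Cpa6, Rel, Kif26b, Sall1 and Slitrk3 in cluster 4, and Diras2, Ltbp1, Pax2, Scamp5, Prelp and Fst in cluster 3. Without cluster 3 in the reference, the log2 ratio was -0.89 for Pax2 (-4.50 with it), -0.37 for Prelp (-4.22) and -0.39 for Fst (-4.21), all under 2-fold. Dusp10, a phosphatase of stress kinases, had its highest level in cluster 6, at 72.9 CPM against 1.18 CPM in the members.

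**Figure D4:**
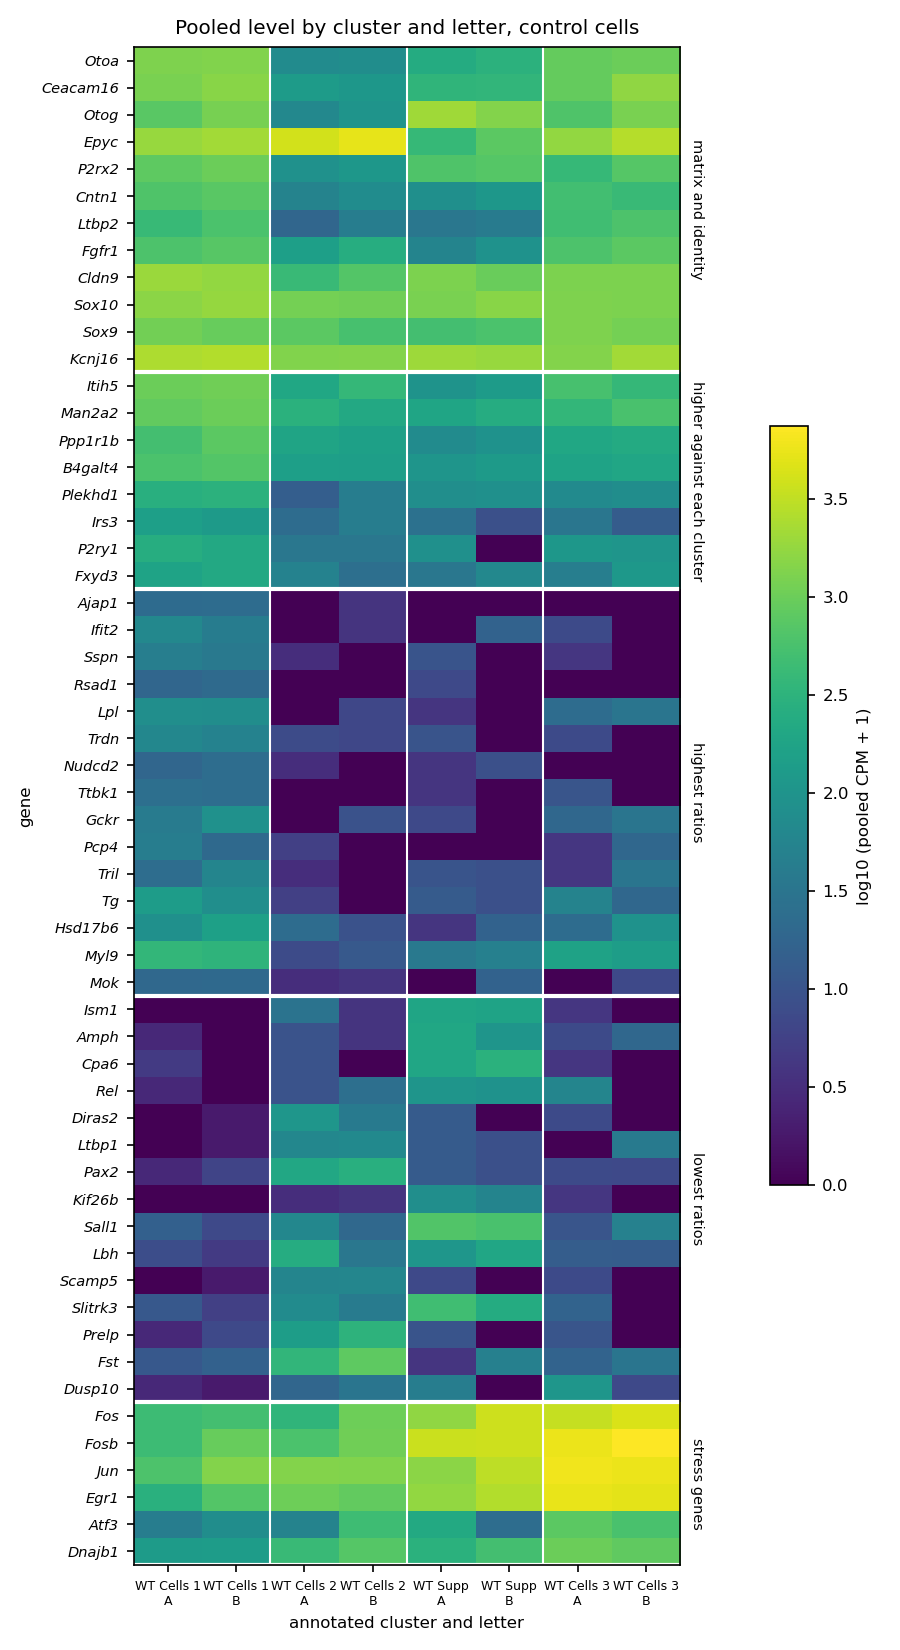
Pooled level as log10 (CPM + 1), shown as colour, for named genes in rows and the 4 annotated clusters split by letter in columns. Otoa, Ceacam16, Ltbp2 and Fgfr1 are bright in WT Cells 1 and WT Cells 3, the 8 genes of the second block are brightest in WT Cells 1, and the stress genes are brightest in WT Cells 3.

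Set against each cluster on its own, the members had 1214 genes called higher (12.7%) and 1076 lower (11.2%) than cluster 3, 1703 higher (17.5%) and 1269 lower (13.1%) than cluster 4, and 1364 higher (14.1%) and 824 lower (8.52%) than cluster 6. These counts come from sums of unequal depth and are not ranked.

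The members were not uniform among themselves. At 50 CPM or more, the genes most concentrated in few cells were Trdn, Il33, Tmem229a, Mfap3l, Zfp329, Tcap, Bms1 and Ppargc1a. Of the UMIs of Trdn, a calcium release protein of muscle, 92.4% lay in 8 of the 80 cells, and of those of Il33, an alarmin cytokine, 82.5%. Tcap, a sarcomere protein, had 78.05% in 8 cells and differed between letters, at 10.7 CPM in A and 103.04 CPM in B. At the other end, the 8 top cells held 16.2% of the UMIs of Zbtb20, a transcription factor, 16.2% of mt-Rnr1, 17.4% of Tmod1 and 17.7% of Malat1. Otoa with 22.9% and Ceacam16 with 21.05% were close to that even end, and Myl9 with 38.5% and Hsd17b6 with 48.9% were between.

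Letter A and letter B of the members differed by 2-fold or more in many genes of low count: of 9382 genes, 1132 (12.1%) were higher in A and 1110 (11.8%) higher in B. With a floor of 50 CPM these were 274 and 230 of 4765 genes. Otoa, Ceacam16, P2rx2, Cntn1, Cldn9 and Kcnj16 were not among them. By the rule for letters, the genes named as higher in A were Gdpd3, Cep95, Sigirr, Ndufaf7, Zcchc4 and Acadl, and those higher in B were Dnase1, Ulk4, Clcn2, Ppp4r1, L1cam and Rras. Each of the latter 6 had no UMI in letter A. Ulk4 (48 UMIs, 17 cells) shares 759 exon bases with Ctnnb1, and Dnase1, Clcn2 and L1cam also overlap other genes. Whether plates, animals or the makeup of the members differ between the letters cannot be told apart.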

How the data were processed

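The deposited matrix holds exon UMI counts of 48440 genes for 360 cells, deposited by the authors without normalization. Their processing notes list STAR, HTSeq and the mm10 build. The annotation release, UMI collapsing, strand use and tool versions were not given in the sources used here. The authors' deposited cluster names were used as given. Every sample is 1 cell. Groups come from the labels, which name no animals, so intervals measure counting error and nothing else.

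UMIs were summed over cells and scaled to CPM. Log2 ratios add 1 CPM to both sets. Filters were 10 CPM and 2-fold. Positions, exon lengths and exon overlaps come from GENCODE M21 on GRCm38, where 48058 of the gene IDs were found. Read strand is unknown, so overlapping genes cannot be told apart. Cells were sorted singly and no doublet caller was run. No columns were identical. Scripts were tested on simulated data. Tools were Python 3.11.15, pandas 2.3.3, scipy 1.17.1 and, for alternative scalings, R 4.3.3 with edgeR 4.0.16.

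Named genes are Fbxo2, Epcam, the 15 highest and 15 lowest ratios under the rule given above, 6 genes per letter, the 8 most concentrated and 4 most even genes, and up to 4 members with most UMIs of each of 26 gene lists (252 genes). Predicted, ribosomal protein and histone genes were left out of the ranked parts. Other list members, those called 2-fold among them, were chosen for mention after their values were seen. The members and lists were chosen with earlier results of these data known. Alternatives were other scalings, thinning, depth limits, pseudocounts, filters, single letters and reference cells without each cluster. Results for some list members are not reported here.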

Additional observations from a re-analysis of the deposited data

Results flagged for a closer look

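The 4 GAP cells annotated to WT Cells 1, which entered no comparison, contained UMIs of 2 genes of the GAP allele that the 80 control members lacked. Atoh1 had 8 UMIs, with 1 to 4 in each of the 4 cells, against 0 UMIs in the members, which allows up to 1.77 CPM over the set and up to 3.75% of cells with a UMI. These limits concern detection at this depth, not the share of cells that express the gene. Pou4f3 had 4 UMIs in 3 of the 4 cells, against 0 in the members. The third gene, Gfi1, had 2 UMIs in these cells and 1 in the members. All 4 cells had Otoa UMIs, at 533 to 1671 CPM, and Ceacam16 UMIs, at 341 to 761 CPM, within the range of the control members. They came from letters C (3 cells) and D (1 cell), which hold GAP cells only.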

How the results depend on the processing

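Of the 30 genes named for their ratios, Pax2, Prelp and Fst came under 2-fold without cluster 3. Their sign without a letter or a cluster follows from the rule that named them, and a filter cannot move the ratio of a single gene. Counts of genes depended on low levels. The number of higher genes was 277 with a pseudocount of 10 CPM, 218 with a filter of 50 CPM and 928 with no filter, and that of lower genes 651, 405 and 1754. Without letter A the higher count was 1212, and without letter B the counts were 1193 higher and 1747 lower, since the condition on both letters then falls away. Between letters, the counts higher in A and in B were 568 and 588 with the larger pseudocount, 274 and 230 with the stricter filter, and 2269 and 2380 with none. Another scaling moved the median of all genes by less than 0.1, and the share of higher among called genes from 34.9% to 40.9% at most. Leaving out the 1 reference cell rich in stria genes gave 609 higher and 1079 lower genes.

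List medians depended on the reference clusters. The pillar and Deiters median was -1.32 with the larger pseudocount, -0.75 with the stricter filter, -1.60 without cluster 3 and -0.83 without cluster 4. That of Hensen and Claudius genes turned to 0.32 without cluster 3. It was -2.78 without cluster 4, -2.78 without cluster 6, -2.08 as a mean over cells, -1.88 without cells above 40000 UMIs, -2.05 with the larger pseudocount, -1.88 without letter B and -2.06 with clusters weighted the same. The stria median was -0.17 without cluster 3. Without cluster 3 those of transport (0.23) and otic transcription factor genes (-0.09) turned, as did those of general supporting (0.24) and outer sulcus genes (-0.02) without cluster 4. The outer sulcus median was -0.64 against all other control cells. Without letter B the transport median was 0.04 and the Wnt median 0.004. Thinning turned the Wnt (0.04) and otic transcription factor (-0.08) medians, and the latter was -0.05 without letter A. Matrix and BMP turns are given with those lists. The stress gene median was -1.38 without letter A, -1.97 without letter B, -1.81 with equal weights, -2.04 without cluster 3, -1.14 without cluster 6 and -1.41 against all other control cells. Among single genes, Slc1a3 (0.54) and Ednrb (0.51) changed sign without cluster 4. The causes were not tested. No paired analysis was possible because control cells form 1 sample and replicate numbers only follow accession order. Depth limits genes of a few UMIs: a gene at 0 may reach 1.77 CPM in the members.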

Other observations

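Some abundant genes were 2-fold or more higher in the members than in each of the 3 reference clusters by itself, at 100 CPM or more. This list was chosen after the values were seen and describes these cells only. Itih5, which encodes a heavy chain of the inter-alpha-trypsin inhibitor family, had a UMI in 78 of 80 members and a median of 817 CPM per cell. Its pooled level was 1059 CPM (1017 in letter A, 1081 in letter B), against 282 CPM in cluster 3, 106.8 CPM in cluster 4 and 492 CPM in cluster 6. Man2a2, a mannosidase of the Golgi, was at 956 CPM against 264, 205 and 435 CPM in the same order. B4galt4, a galactosyltransferase, was at 653 CPM, 4.41-fold above the pooled reference (3.85 to 5.07), with a UMI in 79 members. Ppp1r1b, a protein phosphatase inhibitor, was at 696 CPM, and the clusters stood at 170.5, 78.5 and 212 CPM, at 518 CPM in letter A and 785 CPM in letter B. P2ry1, a receptor for ADP, was at 232 CPM against 33.4, 63.2 and 108.3 CPM. Nrp2, a coreceptor for semaphorins, was at 196 CPM, 5.52-fold higher than the pooled reference (4.19 to 7.36). Against cluster 6 alone its ratio was 2.09 (1.53 to 2.92). In letter A the members stood at 105.1 CPM and cluster 6 at 101.2 CPM, and in letter B at 240 and 79.4 CPM. A single member cell held 27.4% of the members' Nrp2 UMIs. Exons of Man2a2, Ppp1r1b and P2ry1, and of the lower genes Stat3, Cdkn1a and Dnaja1 named below, overlap other annotated genes.

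Abundant genes that were 2-fold or more lower than in each cluster included Trib1, Cdkn1a, Cux2, Stat3, Nfkbiz, Lmna and the chaperone genes Dnajb1 and Dnaja1. Stat3, a transcription factor of cytokine signalling, was at 63.6 CPM against 128.5, 338 and 437 CPM in clusters 3, 4 and 6. Lmna, a protein of the nuclear lamina, was at 129.05 CPM against 304, 551 and 954 CPM. Cdkn1a, an inhibitor of the cell cycle, was at 27.1 CPM against 144.6, 310 and 112.5 CPM. The stress gene sums of the same sets were 4180 CPM in the members and 6368, 11563 and 25836 CPM in the clusters, and the part of those genes in these differences was not tested.

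A few genes followed the letter in members and reference cells alike. Of the 274 genes higher in letter A among the members at 50 CPM or more, 49 were also 2-fold or more higher in A in the reference cells, and 15 were 2-fold or more higher in B there. Of the 230 higher in letter B, 25 were so in the reference cells as well, and 16 were the other way round. The share of all 4765 genes that differed by letter in the reference cells is not given here. Whether these counts exceed that share therefore cannot be told. Bpifa1, a secreted protein of airway and middle ear mucosa, had a UMI in 2 of 28 members of letter A and 51 of 52 of letter B, at 5.34 and 181 CPM, and stood at 2.73 and 185 CPM in the reference cells. Of the other mucosal secretory genes, Bpifb1, Dmbt1, Lcn2, Ltf, Muc5b, Reg3g and Scgb1a1 had no UMI in the members or the reference cells. Bpifb1, Dmbt1 and Scgb1a1 had none in any of the 360 cells. The remaining listed gene, Wfdc2, was not at 0. All 9 listed genes summed to 60.5 CPM in letter A members and 213 CPM in letter B members. Spp1, osteopontin, was at 1.78 CPM in letter A members and 70.5 CPM in letter B members, and reference cells had 0.909 CPM in letter A and 917 CPM in letter B. The source of this RNA in letter B was not tested.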
